A study of Mus musculus with 9 samples.

Results

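The genes described here write, copy and remove methyl groups on cytosine in DNA. Of 9 listed genes, 7 had a probe set annotated to their symbol alone (Tet1, Tet2, Tet3, Dnmt1, Dnmt3a, Dnmt3b and Uhrf1), out of 17731 such genes in all. Tdg was left out because its probe set carries several symbols, and Mbd2 was not analysed here. Each of the 7 had 1 probe set in the table used here.

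The samples were bone marrow cells of the C57BL6 strain, all immortalised with HoxA9, a homeobox oncogene. A pSF91 retrovirus that also encodes a green fluorescent protein was introduced before transplantation into irradiated syngeneic mice, and fluorescent marrow cells were collected by sorting after 4 weeks. The virus held no insert in CTL, wild-type IDH1 in IDH1wt and mutant IDH1 in IDH1mut, with 3 arrays in each of these groups. The labels give neither the mutation nor the species of the insert, and they do not say whether the 3 arrays of a group came from separate mice, so a p-value measures only the spread between these arrays. The sorted population was bulk RNA, in which fewer cells of a type and less RNA per cell cannot be told apart.

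DNA methylation is set by the de novo methyltransferases DNMT3A and DNMT3B and copied onto new strands at replication by DNMT1, which UHRF1 brings to sites methylated on the parental strand only. The TET enzymes oxidise 5-methylcytosine, the first step of its active removal, and use 2-oxoglutarate as a cosubstrate. Mutant IDH1 makes 2-hydroxyglutarate, which competes with 2-oxoglutarate at TET enzymes. TET2 and DNMT3A are also recurrently mutated in human myeloid disease. The arrays measured RNA of these genes, and neither enzyme activity nor DNA methylation.

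The methyltransferase genes Dnmt1 and Dnmt3a were lower with mutant IDH1, by 1.38-fold and 1.33-fold against empty vector, and no member was called higher in any comparison. Values are log2 expression, and a gene was called when its adjusted p from the limma fit was below 0.05. Against empty vector the Dnmt3a call was lost without any 1 of 5 arrays, whereas that of Dnmt1 was kept. Against wild-type IDH1, Dnmt3a was not called. In IDH1mut against CTL, 2 of 7 members fell and 0 rose, beside 10.6% of all genes called lower, 10.1% called higher and 20.7% called in either direction, so that the count says little about these genes as a group. In IDH1wt against CTL the limma fit called 0 of 7 members, where 2.33% of all genes were called (1.62% higher and 0.711% lower), and 2 members (Tet2 and Tet3) had an unadjusted p below 0.05, as did 17% of all genes. In IDH1mut against IDH1wt, 1 of 7 fell and 0 rose, beside 6.78% of all genes called lower, 6.54% called higher and 13.3% called in either direction. Of the members in that comparison, 4 had an unadjusted p below 0.05 (limma), as did 26.7% of all genes. The members' median log2 difference was -0.13 in IDH1mut against CTL and -0.08 in IDH1wt against CTL, both beside -0.04 over all genes, and -0.22 in IDH1mut against IDH1wt, beside 0.00. The comparisons share arrays (CTL in both vector comparisons), so their values are given side by side only.

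**Figure D1:**
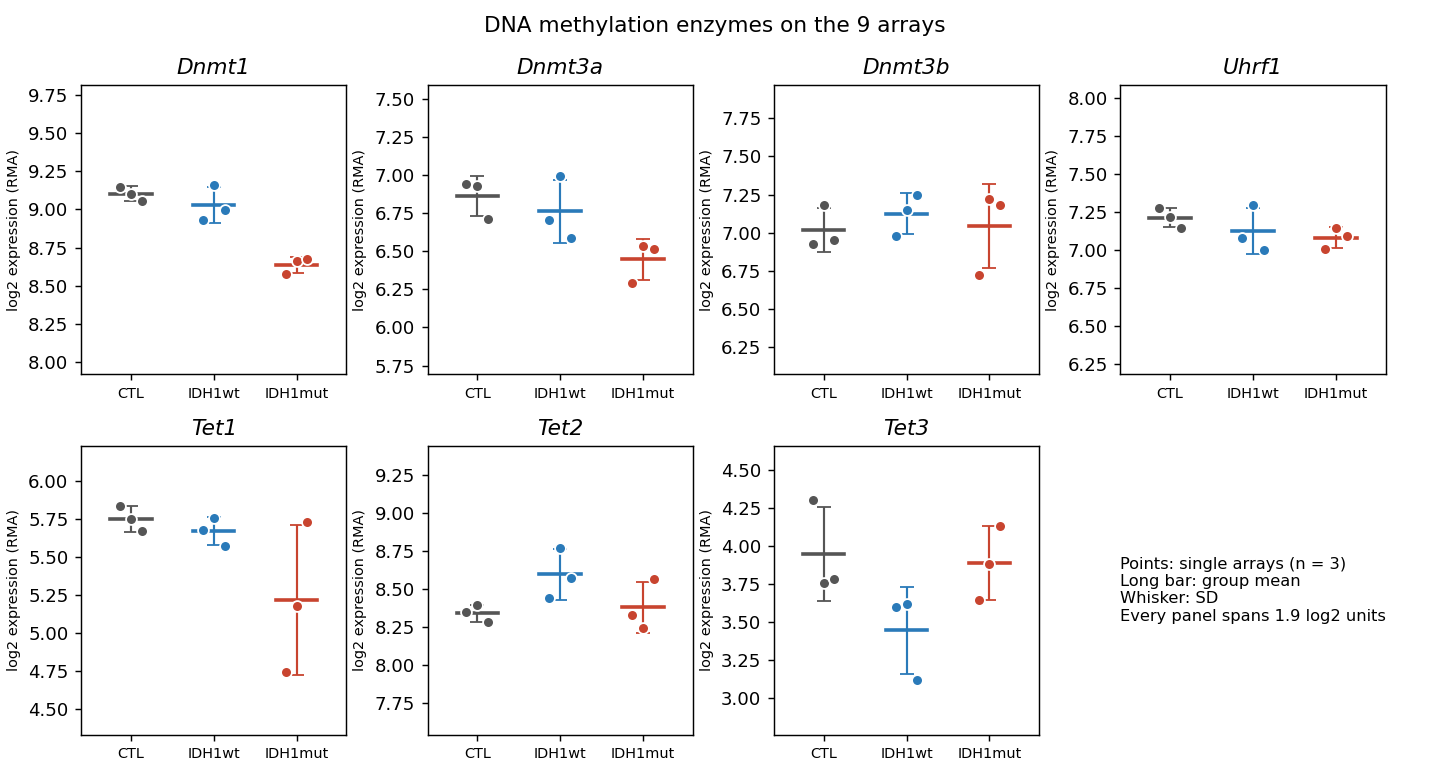
Log2 expression of the 7 genes on each of the 9 arrays, by group, with the group mean (long bar) and SD (whisker, n = 3); every panel spans the same range of log2 units. The 3 IDH1mut arrays lie below all other arrays for Dnmt1 and Dnmt3a, spread widely for Tet1 and overlap CTL for Dnmt3b, Tet2 and Tet3.

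Dnmt1, the maintenance methyltransferase (probe set 1447877_x_at), read 9.15, 9.10 and 9.05 on the CTL arrays, 8.93, 9.16 and 8.998 on the IDH1wt arrays and 8.58, 8.66 and 8.67 on the IDH1mut arrays. Every IDH1mut array was below every array of the other groups, whereas IDH1wt and CTL overlapped. The log2 difference was -0.47 ± 0.09 (SE, n = 3 against 3) in IDH1mut against CTL, with an adjusted p of 0.00453 from limma. This call remained when each array was left out in turn, at adjusted p up to 0.0255. Against IDH1wt the difference was -0.39 ± 0.09 (limma adjusted p = 0.017). That call was lost without IDH1wt replicate 2 (adjusted p = 0.0546 with limma) or IDH1mut replicate 1 (0.0501). IDH1wt and CTL differed by -0.07, with a 95% interval from -0.28 to 0.13. Dnmt1 was also among the steadier genes within groups, its residual SD of 0.08 being above that of 9.82% of all genes. The x in the probe set's name marks probes that may bind related transcripts, and its annotation gives no accession.

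Dnmt3a, a de novo methyltransferase (probe set 1423066_at), read 6.94, 6.93 and 6.71 in CTL, 6.71, 6.99 and 6.59 in IDH1wt and 6.29, 6.53 and 6.52 in IDH1mut. The IDH1mut arrays again did not overlap the others, although the highest of them was close to the lowest IDH1wt array. The log2 difference of IDH1mut against CTL was -0.41 ± 0.12 (limma adjusted p = 0.0357). The call was lost on leaving out CTL replicate 1 or 2 or any IDH1mut array (limma adjusted p up to 0.123, without CTL replicate 1) and in an unmoderated test per gene (0.088), and the difference without each array in turn ran from -0.49 to -0.34. Against IDH1wt it was -0.31 ± 0.12, which did not pass (adjusted p = 0.129, limma). IDH1wt against CTL stood at -0.10, with an interval from -0.37 to 0.17.

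The regions before the start sites of these 2 genes are shown because they are the called members and because CG dinucleotides, in capitals, are what the encoded enzymes methylate. RefSeq (GRCm38.p6) gave 12 promoter windows for the 7 members, each from 250 bases before a start to 50 after it. Dnmt1 has 3 starts, of which the farthest upstream has few CG dinucleotides (2 in its window), the next 12 and the one farthest downstream 33, beside a median of 7 over 32851 windows. The first Dnmt3a window holds 46, a number that 1.65% of all windows reach. The 3 stretches printed, of 6 for these genes, end at the base before the start and hold 2, 7 and 38. Those of the other starts are given by their counts alone, 26 for the Dnmt1 start farthest downstream and 40 and 15 for the later Dnmt3a starts, so the Dnmt1 stretches shown are the ones with fewer CG. Which start was in use was not measured by the arrays.
Dnmt1, farthest start, minus strand, chr9:20959889-20960138: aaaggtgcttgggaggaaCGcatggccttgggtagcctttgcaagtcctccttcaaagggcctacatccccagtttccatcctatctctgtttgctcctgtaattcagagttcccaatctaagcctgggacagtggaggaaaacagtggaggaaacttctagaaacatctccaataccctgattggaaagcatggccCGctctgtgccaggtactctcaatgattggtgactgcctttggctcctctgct
Dnmt1, second start, minus strand, chr9:20952980-20953229: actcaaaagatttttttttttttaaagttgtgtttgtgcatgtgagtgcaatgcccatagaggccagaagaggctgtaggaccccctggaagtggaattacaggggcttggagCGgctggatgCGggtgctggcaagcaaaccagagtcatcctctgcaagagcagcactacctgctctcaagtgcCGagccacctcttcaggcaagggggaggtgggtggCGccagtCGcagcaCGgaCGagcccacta
Dnmt3a, first start, plus strand, chr12:3806730-3806979: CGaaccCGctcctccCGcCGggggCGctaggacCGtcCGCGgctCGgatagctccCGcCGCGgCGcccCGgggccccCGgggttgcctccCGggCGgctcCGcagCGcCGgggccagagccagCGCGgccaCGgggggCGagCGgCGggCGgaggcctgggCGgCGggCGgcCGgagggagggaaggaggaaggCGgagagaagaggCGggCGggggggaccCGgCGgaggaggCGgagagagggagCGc

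Letters of the type bound by E2F, the transcription factors of S-phase entry, were searched for as TTTCGCGC, TTTCCCGC, TTTGGCGC and TTTGCCGC on both strands. They were present in 2 of the members' 12 windows, each the farthest downstream of its gene, in Dnmt1 and Uhrf1, and in 2.26% of all windows. Both held the same 8 letters, TTTCGCGC, in capitals below, on the strand opposite to the gene in Dnmt1 (so that its complement is printed) and on the strand of the gene in Uhrf1. The Dnmt1 window had TTTGGCGC as well, after its start, and the matches do not overlap. A match of letters is not a measured binding site.
Dnmt1, minus strand, chr9:20952824-20952853: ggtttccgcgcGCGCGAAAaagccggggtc
Uhrf1, plus strand, chr17:56304117-56304146: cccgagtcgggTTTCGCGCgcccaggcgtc

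Dnmt3b, the other de novo methyltransferase (probe set 1449052_a_at), read 6.92, 7.18 and 6.95 in CTL, 6.98, 7.15 and 7.24 in IDH1wt and 6.72, 7.22 and 7.18 in IDH1mut. All groups overlapped, and IDH1mut replicate 1 was the lowest of the 9 arrays. The log2 difference in IDH1mut against CTL was 0.02 ± 0.14, with a 95% interval from -0.29 to 0.33 (limma adjusted p = 0.937), and its sign changed with single arrays. IDH1wt against CTL was 0.11 ± 0.14, and IDH1mut against IDH1wt -0.08 ± 0.14, neither of which passed.

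Uhrf1, the partner that recruits DNMT1 to hemimethylated sites (probe set 1415811_at), read 7.28, 7.22 and 7.15 in CTL, 7.08, 7.30 and 7.003 in IDH1wt and 7.01, 7.15 and 7.09 in IDH1mut. The IDH1mut and CTL arrays were only just apart, the highest of one group and the lowest of the other being equal to the second decimal. The difference was -0.13 ± 0.10 in IDH1mut against CTL (95% interval -0.35 to 0.09; limma adjusted p = 0.411), -0.09 ± 0.10 in IDH1wt against CTL and -0.05 ± 0.10 between the IDH1 groups. None of the 3 passed. Arrays of IDH1mut and CTL did not overlap for 3 of 7 members (Dnmt1, Dnmt3a and Uhrf1), beside 37.8% of all genes.

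**Figure D2:**
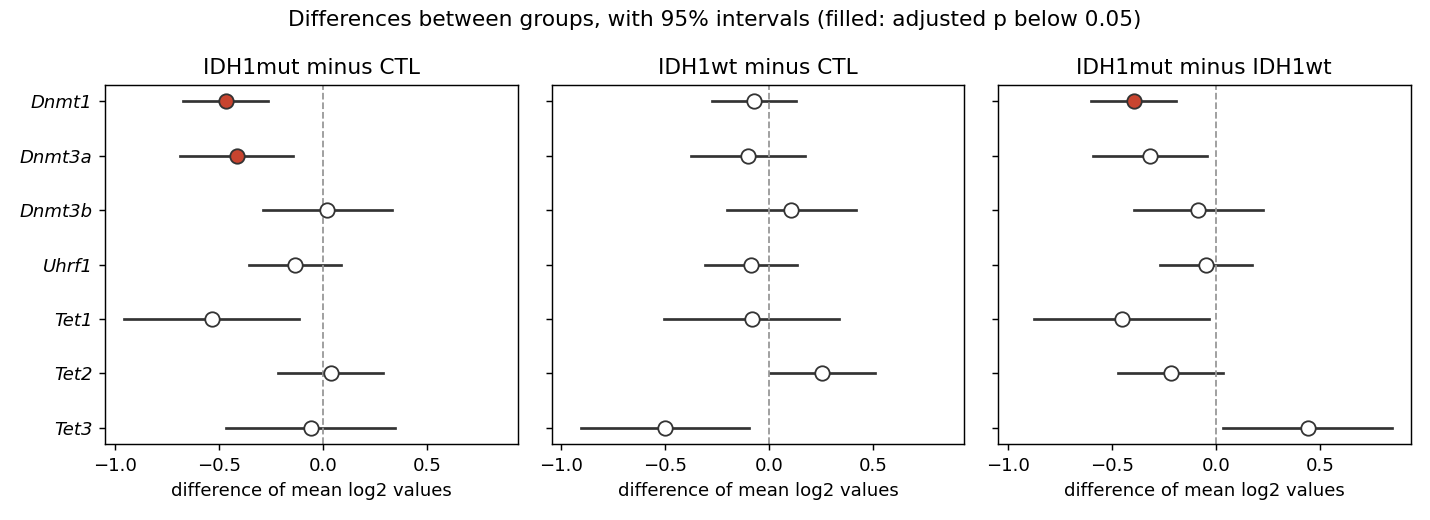
Differences of mean log2 values for the 7 genes in the 3 comparisons, with 95% intervals from the limma fit; filled points have an adjusted p below 0.05. Dnmt1 is filled in both IDH1mut comparisons and Dnmt3a in IDH1mut minus CTL, and no point is filled in IDH1wt minus CTL.

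Within an array, the change of Dnmt1 was not equal to that of Uhrf1. These pairs were chosen after their values were seen and were not tested, and only shifts between groups can be read, since probe sets differ in brightness. Dnmt1 minus Uhrf1 was 1.87, 1.89 and 1.91 in CTL, 1.85, 1.86 and 2.00 in IDH1wt, and 1.57, 1.52 and 1.58 in IDH1mut. The IDH1mut arrays lay below all others, by 0.33 against CTL on average, a 1.26-fold shift. Dnmt3a minus Dnmt3b was 0.02, -0.25 and -0.24 in CTL, -0.27, -0.16 and -0.66 in IDH1wt and -0.43, -0.68 and -0.67 in IDH1mut. Here IDH1mut was apart from CTL, by -0.44, and overlapped IDH1wt through IDH1wt replicate 3.

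Genes of G1/S and DNA replication, with which DNMT1 and UHRF1 are expressed in cycling cells, rose in 2 of 26 members and fell in 5 in IDH1mut against CTL, with a median of -0.07. E2f1, an activator of S-phase genes, fell (-0.45 ± 0.10; limma adjusted p = 0.00648), as did Mcm3 of the replicative helicase (-0.50 ± 0.10). Ccne1, cyclin E1, rose by 0.60 and Slbp, the histone mRNA binding protein, by 0.53, the former with a call lost without any 1 of 5 arrays and the latter without any 1 of 3. The count of falls became 2 on leaving out replicate 1 or 3 of CTL or replicate 3 of IDH1mut and 3 without IDH1mut replicate 2. The mean log2 level of the list ran from 7.47 to 7.60 on the CTL arrays, 7.53 to 7.63 on the IDH1wt arrays and 7.49 to 7.51 on the IDH1mut arrays. Dnmt1 minus this mean was 1.61, 1.64 and 1.46 in CTL, 1.41, 1.54 and 1.41 in IDH1wt and 1.07, 1.17 and 1.16 in IDH1mut. Relative to this mean, Dnmt1 was lower with mutant IDH1. The mean itself lay within its CTL range on the IDH1mut arrays, so this mostly repeats the difference of Dnmt1 alone. The mean pools genes that rose and genes that fell, and 4 of the 26 were below the array medians. E2f1 and Mcm3 themselves fell about as far as Dnmt1, whose difference was -0.47. Of 14 mitosis genes 2 rose and 0 fell (Cenpa by 0.57, lost without any 1 of 2 arrays, and Ccna2 by 0.34, lost without any 1 of 5).

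**Figure D3:**
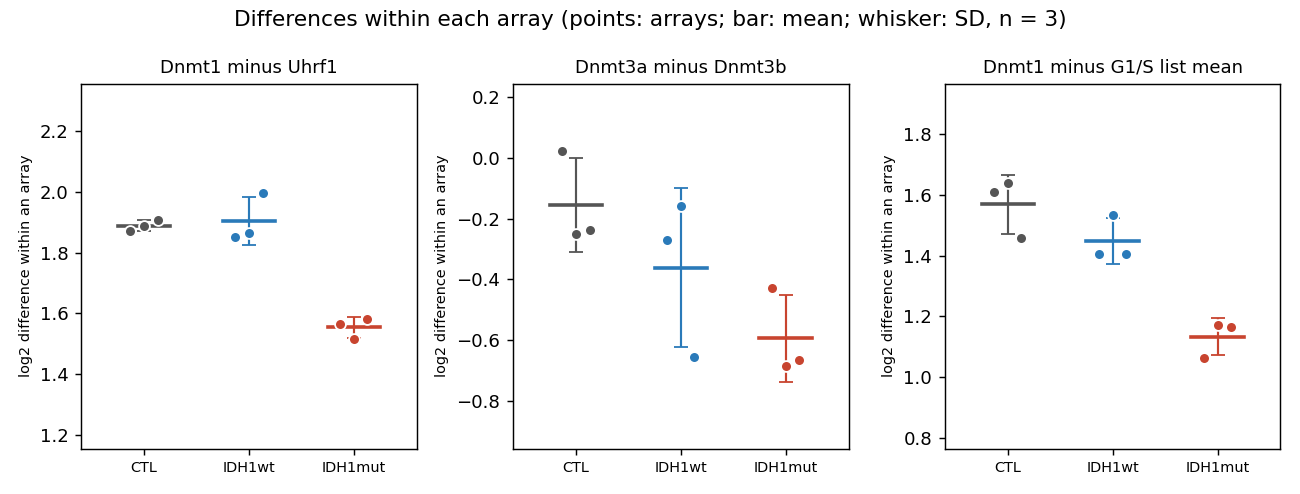
Log2 differences within each array between Dnmt1 and Uhrf1, Dnmt3a and Dnmt3b, and Dnmt1 and the mean of 26 G1/S and replication genes, by group with mean and SD (n = 3). IDH1mut arrays lie below all other arrays in the left and right panels and overlap an IDH1wt array in the middle.

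Tet1 (probe set 1429448_s_at), which oxidises 5-methylcytosine, read 5.84, 5.75 and 5.67 in CTL, 5.68, 5.75 and 5.57 in IDH1wt and 4.75, 5.17 and 5.73 in IDH1mut. Of the IDH1mut arrays, replicates 1 and 2 were below every other array and replicate 3 was within the CTL range. The difference of IDH1mut against CTL, -0.53 ± 0.19, had the largest size among the 7 members there and did not pass (limma adjusted p = 0.0718). Without IDH1mut replicate 3 it was -0.79 with an adjusted p of 0.00428 in limma, and against IDH1wt it then passed too (-0.71; 0.0119), whereas with all arrays that difference was -0.45 (0.156). Without IDH1mut replicate 1, the lowest array, the differences were -0.30 against CTL and -0.22 against IDH1wt (limma adjusted p = 0.212 and 0.431). It passed with array weights (-0.57; limma adjusted p = 0.023) and among the brighter genes alone (0.0445). The residual SD of Tet1, 0.29, exceeded that of 95.1% of all genes. IDH1wt and CTL differed by -0.08, with an interval from -0.50 to 0.34.

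Tet2, the family member most often mutated in myeloid disease (probe set 1455300_at), read 8.35, 8.40 and 8.28 in CTL, 8.44, 8.77 and 8.58 in IDH1wt and 8.33, 8.24 and 8.57 in IDH1mut. Each IDH1wt array was above each CTL array, and IDH1mut overlapped both groups. IDH1wt against CTL was 0.25 ± 0.12, with a 95% interval from 0.00 to 0.51, and did not pass (limma unadjusted p = 0.0487, adjusted p = 0.291). The IDH1mut difference was 0.04 ± 0.12 against CTL, with an interval from -0.22 to 0.29, and -0.22 ± 0.12 against IDH1wt.

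Tet3, the remaining dioxygenase of the family (probe set 1439324_at), read 4.30, 3.76 and 3.78 in CTL, 3.60, 3.62 and 3.12 in IDH1wt and 3.65, 3.88 and 4.13 in IDH1mut. All 9 values were below the array medians of 4.66 to 4.72, where RMA compresses differences, and its presence was not tested. The IDH1wt arrays were the lowest 3 of the 9. IDH1wt against CTL was -0.50 ± 0.18 (limma unadjusted p = 0.0197, adjusted p = 0.201) and IDH1mut against IDH1wt 0.44 ± 0.18 (adjusted p = 0.148), and neither passed. With array weights the former passed, at -0.71 (limma adjusted p = 0.0417), whereas without CTL replicate 1 it was -0.32 (0.509) and without IDH1wt replicate 3 -0.34 (0.485). Leaving out IDH1wt replicate 3 also brought the latter to 0.28 (limma adjusted p = 0.423). IDH1mut and CTL differed by -0.06, with an interval from -0.46 to 0.35. Arrays of IDH1wt and CTL did not overlap for 2 of 7 members, Tet2 and Tet3, in opposite directions, beside 23.6% of all genes. Between IDH1mut and IDH1wt they did not overlap for 3 of 7, with Dnmt1 and Dnmt3a lower and Tet3 higher, beside 29.5% of all genes.

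Across the 9 arrays the members did not vary as a block. Pearson's r was 0.917 between Dnmt1 and Dnmt3a, 0.869 between Dnmt3a and Uhrf1 and 0.772 between Dnmt1 and Tet1, but 0.263 between Dnmt3a and Dnmt3b and -0.329 between Tet2 and Tet3. These describe arrays that share groups and normalisation. The genes whose values were most like those of Dnmt1 were Rnf125 (r = 0.99 over 9 arrays) and Socs7 (0.989). For Dnmt3a they were Tmem161a (0.974) and Patl2 (0.964).

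Other genes of the DNA methylation cycle came from lists of known roles. Counts of all lists, with those of cell cycle and cell type genes, stand beside the shares over all genes. These were 10.1% higher and 10.6% lower in IDH1mut against CTL, with a median of -0.04. They were 1.62% and 0.711% in IDH1wt against CTL, and 6.54% and 6.78% in IDH1mut against IDH1wt. In IDH1wt against CTL, 17% of all genes had an unadjusted p below 0.05 (limma). A count near its share says little about a list. Cofactors of upkeep and targeting rose in 2 of 12 and fell in 0 in IDH1mut against CTL, with a median of -0.05. Usp7, a deubiquitinase that stabilises DNMT1 and UHRF1, rose by 0.69 ± 0.13 (limma adjusted p = 0.0039), from 7.36, 7.30 and 7.28 in CTL to 7.95, 7.97 and 8.10. In IDH1wt it read 7.46, 8.05 and 7.87, a difference of 0.48 that did not pass. Cdca7l rose by 0.35, with a call lost without any 1 of 4 arrays. In IDH1wt against CTL 0 of these 12 were called by limma, and 6 had an unadjusted p below 0.05. In IDH1mut against IDH1wt, Dnmt3l, a cofactor of de novo methylation without catalytic activity, rose by 0.56 ± 0.11 (limma adjusted p = 0.00754) and Trim28, a corepressor at imprinted loci, fell (-0.42 ± 0.09; 0.00903).

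Genes of methyl-CpG reader families, not all of which bind methylated CpG themselves, rose in 1 of 7 and fell in 3 in IDH1mut against CTL. Their median was -0.30. Zbtb4, a zinc finger repressor that binds methylated CpG, moved furthest, from 6.28, 6.30 and 6.30 in CTL to 5.03, 5.35 and 5.12 in IDH1mut, and read 6.22, 6.13 and 6.17 in IDH1wt. It fell by 1.12 on the log2 scale against CTL (SE 0.10; limma adjusted p = 4.24e-05) and by 1.00 against IDH1wt (0.000197). Mbd3, a subunit of the NuRD complex, fell (-0.45 ± 0.10), and Zbtb33, which encodes Kaiso, rose by 0.43 ± 0.09. Mbd6 fell (-0.31), with a call lost without any 1 of 5 arrays. In IDH1wt against CTL 0 of these 7 were called by limma, and 1 had an unadjusted p below 0.05.

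TET partners and proposed demethylation factors rose in 2 of 11 and fell in 2 in IDH1mut against CTL, with a median of 0.15. Ogt, the O-GlcNAc transferase that binds TET proteins, read 6.99, 7.04 and 7.16 in CTL, 7.62, 7.50 and 7.52 in IDH1wt and 8.14, 8.37 and 8.87 in IDH1mut. The 3 groups did not overlap. It rose by 1.40 ± 0.16 against CTL (limma adjusted p = 0.000168) and by 0.91 ± 0.16 against IDH1wt (0.00355), while the IDH1wt difference of 0.49 did not pass (0.142). Apobec1, a cytidine deaminase, rose by 0.86 ± 0.12, and Apobec3 fell (-0.44 ± 0.09). Cxxc5, a CXXC zinc finger protein that binds TET2, fell (-0.78 ± 0.18). In IDH1wt against CTL 0 of these 11 were called by limma, and 6 had an unadjusted p below 0.05. Against IDH1wt, 5 of 11 rose and 1 fell, with Gadd45g, a stress-induced gene, at 0.87 ± 0.16. The calls of Ogt and Gadd45g there were kept without each array in turn. Those of Apobec1, Gadd45a and Gadd45b were lost without any 1 of 2, 3 and 8 arrays, and the fall of Apobec3 without any 1 of 3.

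Base excision genes, DNA glycosylases among them, rose in 2 of 10 and fell in 1 in IDH1mut against CTL, with a median of -0.15. In IDH1wt against CTL they rose in 2 and fell in 0, and 3 had an unadjusted p below 0.05 (limma). Neil3, a DNA glycosylase, read 5.68, 5.30 and 5.74 in CTL, 6.27, 6.89 and 6.41 in IDH1wt and 6.42, 6.44 and 7.09 in IDH1mut. Both IDH1 groups were above CTL, by 1.08 ± 0.21 with the mutant (limma adjusted p = 0.00386) and 0.95 ± 0.21 with the wild type (0.0392), the latter lost without any 1 of 5 arrays. Polb, DNA polymerase beta, rose by 0.48 with mutant and 0.78 with wild-type IDH1, with calls lost without any 1 of 6 and any 1 of 4 arrays. Ung, uracil DNA glycosylase, fell with the mutant (-0.52 ± 0.11) and stood at 0.04 with the wild type.

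Genes around the S-adenosylmethionine cycle, which supplies the methyl groups, fell in 4 of 11 and rose in 0 in IDH1mut against CTL. Their median was -0.23, and not all of them encode enzymes of the cycle itself. Those that fell were Shmt1 (-0.53), Mtr (-0.34), Ahcyl1 (-0.33) and Shmt2 (-0.29), and each call was lost without any 1 of 4 to 7 arrays. The count became 0 without CTL replicate 3 or IDH1mut replicate 2 and 1 without any of the other 4 CTL and IDH1mut arrays. Mtr, methionine synthase, read 8.01, 7.84 and 7.91 in CTL, 8.08, 8.19 and 8.08 in IDH1wt and 7.52, 7.59 and 7.64 in IDH1mut. It was below all other arrays with mutant IDH1, and its difference from IDH1wt was -0.53 ± 0.09 (limma adjusted p = 0.00334). In IDH1wt against CTL 0 of 11 were called by limma, with 1 at an unadjusted p below 0.05.

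**Figure D4:**
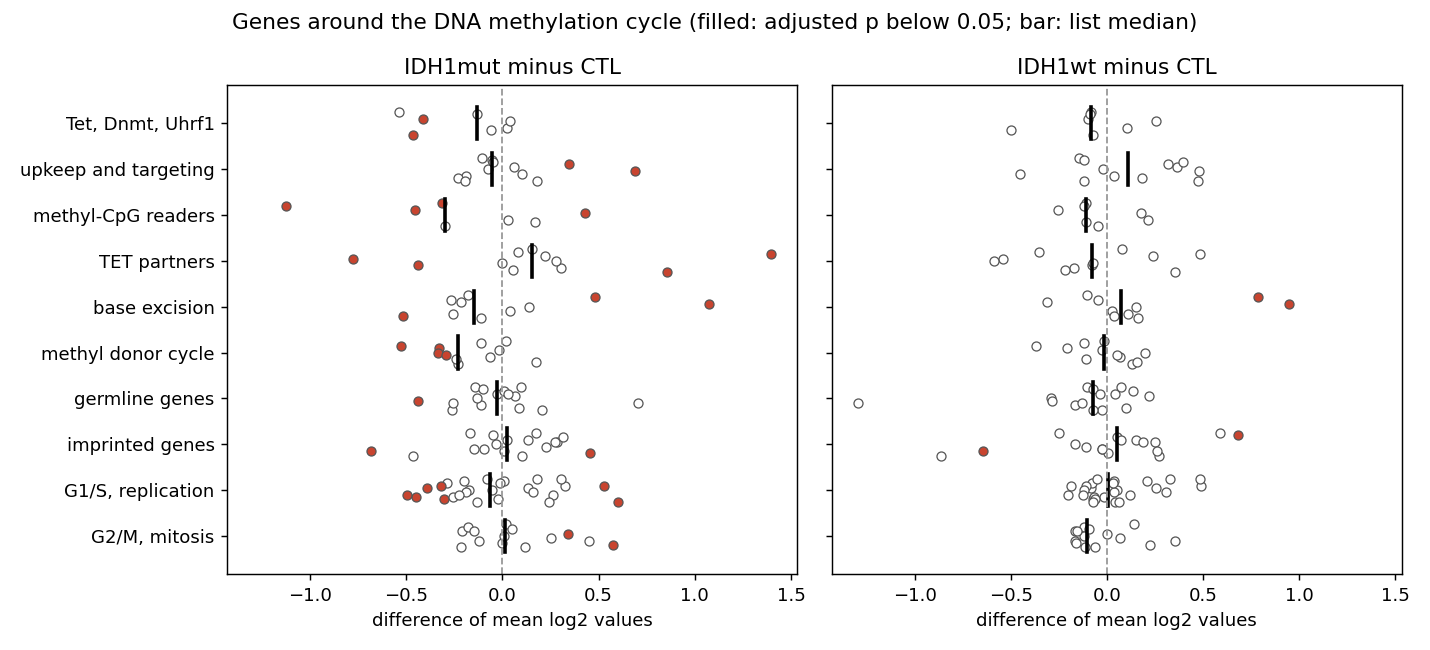
Log2 differences of every measured gene of the 7 members, 7 pathway and readout lists and 2 cell cycle lists, in IDH1mut minus CTL and IDH1wt minus CTL; filled points have an adjusted p below 0.05 and black bars are list medians. Filled points lie on both sides of 0 in 5 of 10 lists on the left, and 4 points are filled on the right, all in base excision and imprinted genes.

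Genes known to be repressed by DNA methylation were read beside the enzymes. Of 15 germline genes that promoter methylation silences in somatic cells, 13 were below the array medians on all 9 arrays. In IDH1mut against CTL 0 rose and 1 fell, with a median of -0.03. The gene that fell was Sycp3 (-0.44, lost without any 1 of 4 arrays), itself 1 of those 13. RMA compresses differences at such values, so the median says little about these genes. In IDH1wt against CTL 0 of 15 were called by limma, and 4 had an unadjusted p below 0.05. Ddx4, an RNA helicase of germ cells, was above the medians on most arrays, at 6.44, 5.99 and 6.55 in CTL, 5.56, 4.31 and 5.22 in IDH1wt and 6.38, 7.65 and 7.06 in IDH1mut. IDH1mut exceeded IDH1wt by 2.00 ± 0.34 (limma adjusted p = 0.00332), while neither group differed from CTL past the threshold (0.71 with the mutant, adjusted p = 0.174; -1.30 with the wild type, 0.074).

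Imprinted genes rose in 1 of 17 and fell in 1 in each comparison with CTL, with medians of 0.02 with the mutant and 0.05 with the wild type. With the wild type, 6 had an unadjusted p below 0.05 (limma). Of the 17, 11 were below the array medians, where RMA compresses differences, so the medians say little about them. Igf2r, the imprinted receptor that clears IGF2, fell in both, from 9.30, 9.24 and 9.08 in CTL to 8.54, 8.69 and 8.46 in IDH1wt and 8.31, 8.71 and 8.56 in IDH1mut. The differences were -0.65 ± 0.12 with the wild type (limma adjusted p = 0.0175, lost without any 1 of 3 arrays) and -0.68 ± 0.12 with the mutant (0.0022). Meg3, an imprinted noncoding RNA, rose by 0.45 with the mutant, lost without any 1 of 3 arrays. Impact rose by 0.68 with the wild type, lost without any 1 of 5 arrays, and stood at -0.05 with the mutant.

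Cell type markers moved between IDH1mut and CTL along with Dnmt1 and Dnmt3a. Myeloid progenitor and primary granule markers, well above the array medians in every group, fell in 9 of 10, with mean log2 levels of 11.40 to 11.52 in CTL, 11.27 to 11.42 in IDH1wt and 10.63 to 10.68 in IDH1mut. Late neutrophil markers rose in 6 of 10 (12.19 to 12.38 in CTL, 12.35 to 12.41 in IDH1wt and 12.89 to 12.95 in IDH1mut) and erythroid markers in 8 of 9 (6.56 to 6.66, 6.26 to 7.76 and 7.73 to 8.01), with Hba-a1 below the array medians throughout. B cell markers rose in 3 of 9 (5.69 to 6.76, 4.90 to 6.11 and 6.37 to 7.34) and T and NK cell markers in 2 of 7 (4.93 to 4.96, 4.65 to 4.88 and 5.05 to 5.33), with Cd4 and Ncr1 below the medians. Stem cell markers rose in 4 of 8 and fell in 1 (5.77 to 5.87 in CTL, 5.63 to 5.80 in IDH1wt and 6.15 to 6.59 in IDH1mut), with Mecom, a zinc finger transcription factor of stem cells, higher by 2.93 and Kit, the stem cell factor receptor, lower (-0.56). Monocyte and macrophage markers rose in 2 of 8 and fell in 1, Cd14 (-1.48), at mean levels of 8.21 to 8.35, 8.30 to 8.54 and 8.10 to 8.48. The counts for progenitor, late neutrophil and stem cell markers moved by at most 1 when any array was left out, but others rested on single arrays. The erythroid count became 4 without CTL replicate 2 and 5 without replicate 3 of CTL or replicate 2 or 3 of IDH1mut. The B cell count became 1 on leaving out replicate 1 or 3 of CTL or replicate 3 of IDH1mut. The T and NK cell count became 0 on leaving out replicate 2 of CTL or replicate 2 or 3 of IDH1mut and 1 without CTL replicate 3. The monocyte and macrophage rises became 0 on leaving out replicate 1 or 3 of CTL or replicate 2 of IDH1mut, and 1, beside 2 falls, without IDH1mut replicate 1. Their part in the differences of the methyltransferase genes was not tested. Mouse Idh1 lay between 10.45 and 10.84 on all 9 arrays and did not pass in any comparison.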

How the data were processed

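RNA of sorted marrow cells was hybridised to 9 Affymetrix arrays, from 3 µg of total RNA each per the labels' protocols. The deposited values were log2 expression per probe set from RMA, per the submitters' processing notes, with no version. RMA corrects background, quantile-normalises and summarises probe sets. Array medians were between 4.66 and 4.72, and 9 arrays limit the precision. The platform annotation, dated 2016, gave 17815 of 20877 probe sets 1 symbol. The brightest probe set on average stood for each gene. The main model, in limma 3.58.1 (R 4.3.3), had 1 coefficient per group over the 9 arrays and two-sided moderated tests, with Benjamini-Hochberg adjustment over 17731 genes and a threshold of 0.05. Differences are of mean log2 values, with moderated SE and 95% intervals. The code was tested on simulated data.

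Members and lists were chosen with earlier results of these data known, and lists were counted, not tested. The text names all members, up to 4 called genes per list of largest difference in IDH1mut against CTL, up to 2 in the other comparisons, and the 2 genes most correlated with each called member, leaving out clone-like symbols. Not every gene the rule allows is printed. The alternatives were other probe set choices, normalisations, filters, variance models and weights, a fit on 6 arrays, an unmoderated test, the replicate number as a block and each array left out.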

Additional observations from a re-analysis of the deposited data

How the results depend on the processing

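The fall of Dnmt1 in IDH1mut against CTL kept its direction and its call under every alternative run. The members called there numbered 2 (Dnmt1 and Dnmt3a), with 1 (Dnmt1) in an unmoderated test, 3 (with Tet1) among the brighter genes alone and under array weights, and 1 to 2 when each array was left out, the 2 without IDH1mut replicate 3 being Tet1 and Dnmt1. In IDH1mut against IDH1wt, 1 member was called, with 0 to 2 on leaving out arrays. In IDH1wt against CTL 0 were called, with 1 under array weights and 0 without each array in turn. Over all genes, the count of 414 for IDH1wt against CTL became 717 with an intensity trend and robust variances, 1226 with array weights and 58 unmoderated, and ran from 132 to 570 without each array. The other 2 counts were 3663 for IDH1mut against CTL and 2363 against IDH1wt. Without each array in turn they ran from 2370 to 3805 and from 1475 to 2193. Under the other alternatives the former ran from 2955 (unmoderated) to 4452 (array weights). The latter then ran from 1662 (fit on 6 arrays) to 2827 (brighter genes alone). The cause of these shifts was not tested.

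Signs turned only for members that did not pass. In IDH1mut against CTL without each array, Tet3 ran from -0.18 to 0.12, positive without CTL replicate 1 or IDH1mut replicate 1 (0.061), Tet2 from -0.056 (without IDH1mut replicate 3) to 0.10, and Dnmt3b from -0.066 to 0.18, negative without CTL replicate 1 (-0.026), CTL replicate 3 (-0.012), IDH1mut replicate 2 or IDH1mut replicate 3 (-0.048). Against IDH1wt, Dnmt3b ran from -0.17 to 0.076 (without IDH1mut replicate 1) and Uhrf1 from -0.11 to 0.040 (without IDH1wt replicate 2), with 0.0031 under array weights.

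Deviations of same-numbered arrays correlated between -0.0857 and 0.0257, so they shared no large component over all genes. These correlations cannot show whether the arrays were paired in the experiment. With the replicate number as a block, 2, 0 and 1 members and 3383, 314 and 2035 genes were called with mutant against empty vector, wild type against empty vector and mutant against wild type. Only 3 arrays per group and RMA's compression near the low end limit what differences could be seen, for Tet3 most of all.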
